A study of Mus musculus with 8 samples.

Results

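The cardiac muscle genes described here are 10 genes of the contractile apparatus of the heart, Actc1, Tnnc1, Tnnt2, Tnni3, Myh6, Myl4, Myl7, Mybpc3, Ttn and Sln, measured in whole mouse lungs at embryonic day 18.5. They were chosen on measured values of these arrays, because heart muscle transcripts read higher in lungs without Snx5 than in wild-type lungs, both with and without air, so their genotype differences are given as a description and carry no test. Of the 10 genes, 9 are named by a probe in the platform annotation used here, by 11 probes in all, out of 16593 genes and 25697 probes of the array. Tnnt2, cardiac troponin T, was not analysed here. The RNA came from 8 lung samples, 2 in each of 4 groups: Snx5+/+ non-air, Snx5-/- non-air, Snx5+/+ air and Snx5-/- air. All lungs carry the strain label C57BL/6, and the non-air and air labels divide each genotype. Snx5-/- mice are homozygous for the gene trap XA155, 1 insertion of a β-galactosidase and neomycin cassette in an intron of Snx5, carried from 1 embryonic stem cell line through chimeras and backcrossed to C57BL/6. The study's methods describe a breathing test in room air for pups delivered by caesarean section at this age, and the labels say no more of what air means for the arrays. All values are log2 intensities, so a difference of 1 is a change of 2-fold.

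Heart muscle contracts when calcium binds the troponin complex on the thin actin filaments and lets the myosin heads of the thick filaments pull on them, while titin acts as a spring between the Z-disc and the middle of the sarcomere. Several of these proteins have separate genes for atrium, ventricle and skeletal muscle, so that some of the transcripts distinguish these muscles. In the mouse the walls of the pulmonary veins carry a sleeve of striated cardiac muscle that reaches from the left atrium into the lung, and heart muscle RNA is therefore known from whole mouse lungs. In whole-lung RNA, fewer cells of a type and less RNA per cell cannot be told apart.

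The promoters of 4 members whose levels moved together over the arrays are shown, each from 250 bases before to 50 bases after a RefSeq start site. Capitals mark matches, on either strand, to 5 motifs of muscle and general promoters. These are TATAAA, the form of the TATA box searched here, then GATAAG, a site for GATA factors, and CATTCC, the muscle element known as MCAT. The other 2 are the CArG box, bound by serum response factor, and the MEF2 site, both given by name.
Actc1 (GRCm38.p6 chr2:114052826-114053125, minus strand): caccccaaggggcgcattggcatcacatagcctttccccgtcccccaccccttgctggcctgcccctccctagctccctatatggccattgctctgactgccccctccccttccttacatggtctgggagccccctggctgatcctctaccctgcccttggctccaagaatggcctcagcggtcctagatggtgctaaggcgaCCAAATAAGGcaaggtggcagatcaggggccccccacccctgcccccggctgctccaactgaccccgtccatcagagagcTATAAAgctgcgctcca
Myl7 (GRCm38.p6 chr11:5898733-5899032, minus strand): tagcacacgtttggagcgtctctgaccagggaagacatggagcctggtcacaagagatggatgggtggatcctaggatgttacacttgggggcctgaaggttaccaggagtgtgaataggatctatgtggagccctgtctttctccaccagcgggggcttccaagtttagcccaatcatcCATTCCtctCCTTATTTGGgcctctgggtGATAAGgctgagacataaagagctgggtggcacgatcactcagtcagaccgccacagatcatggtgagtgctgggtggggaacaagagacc
Tnnc1 (GRCm38.p6 chr14:31208062-31208361, plus strand): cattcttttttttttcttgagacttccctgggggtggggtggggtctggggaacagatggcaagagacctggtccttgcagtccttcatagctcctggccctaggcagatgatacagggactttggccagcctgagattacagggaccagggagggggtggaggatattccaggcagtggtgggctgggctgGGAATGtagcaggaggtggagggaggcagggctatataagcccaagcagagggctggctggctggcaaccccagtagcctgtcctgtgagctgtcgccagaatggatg
Ttn (GRCm38.p6 chr2:76982498-76982797, minus strand): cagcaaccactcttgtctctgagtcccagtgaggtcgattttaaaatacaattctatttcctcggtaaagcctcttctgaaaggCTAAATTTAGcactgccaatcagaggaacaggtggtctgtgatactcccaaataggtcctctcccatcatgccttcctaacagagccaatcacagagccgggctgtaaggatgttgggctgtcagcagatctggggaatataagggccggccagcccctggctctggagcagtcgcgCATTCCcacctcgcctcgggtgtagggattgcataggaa
A window was found for 9 of the 10 members, Sln being the one without, and the motifs were searched in all 32851 windows of that length. A CArG box stood in the windows of 2 members, Actc1 and Myl7, and in 1.63% of all windows. The MEF2 site stood in 2, Mybpc3 and Ttn, and in 0.557% of all windows. CATTCC stood in 5 members (14.7% of all windows), GATAAG in 3 (7.44%) and TATAAA in 2 (13.6%). Matches to different motifs did not overlap in the windows shown. A match is a run of letters and says nothing here of binding.

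Before the results, 3 facts of the arrays bear on them. The air labels of the deposited tables conflict: all 8 columns of non-normalized intensities followed the log2 values labelled with the opposite air state, genotype and replicate being equal, so under the labels of that table the non-air and air values below change places, while genotype differences averaged over both states stay. The arrays also differed by sex. Xist, the RNA of the inactive X chromosome, lay between 11.82 and 12.58 on 6 arrays and at 7.83 and 7.77 on the 2 Snx5-/- air arrays, and the Y-linked gene Eif2s3y was at 11.81 and 11.73 on these 2 and between 7.13 and 7.40 on the others. In air lungs genotype and sex cannot be told apart, whereas the 4 non-air arrays all had the high Xist level. Genotype differences averaged over both states include these air lungs, so sex is partly mixed with genotype there as well. Snx5 itself was lower on every Snx5-/- array (7.10 to 7.29) than on any Snx5+/+ array (7.84 to 8.42), with its probe above background on 1 of the 8 arrays. Between 47.5% and 49.4% of probes were detected per array at a detection p-value under 0.01, a cutoff used throughout for above background.

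For 7 of the 9 measured genes, all but Tnni3 and Mybpc3, the probe was above background on all 8 arrays, and these 7 read higher in Snx5-/- lungs in both states. Their median difference between genotypes was 0.90 in non-air lungs (range 0.45 to 0.95) and 0.90 in air lungs (range 0.81 to 1.13), on the log2 scale. Averaged over both states it was 0.85, or 1.81-fold, where the median of the 9635 genes tested was 0.0073. Tnni3 and Mybpc3 lay near background and passed the intensity filter through Snx5-/- groups alone. With both taken at their measured values, the medians over the 9 genes were 0.61 in non-air lungs, 0.87 in air lungs and 0.83 averaged. For 8 of the 9, all but Tnni3, every Snx5-/- array stood above every Snx5+/+ array. Since the genes were chosen for this, nothing is read from that count. Over all genes tested, 0.882% were called higher in Snx5-/- lungs in the averaged comparison, a call being an adjusted p under 0.05 in limma and an absolute log2 difference above 0.35.

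**Figure D1:**
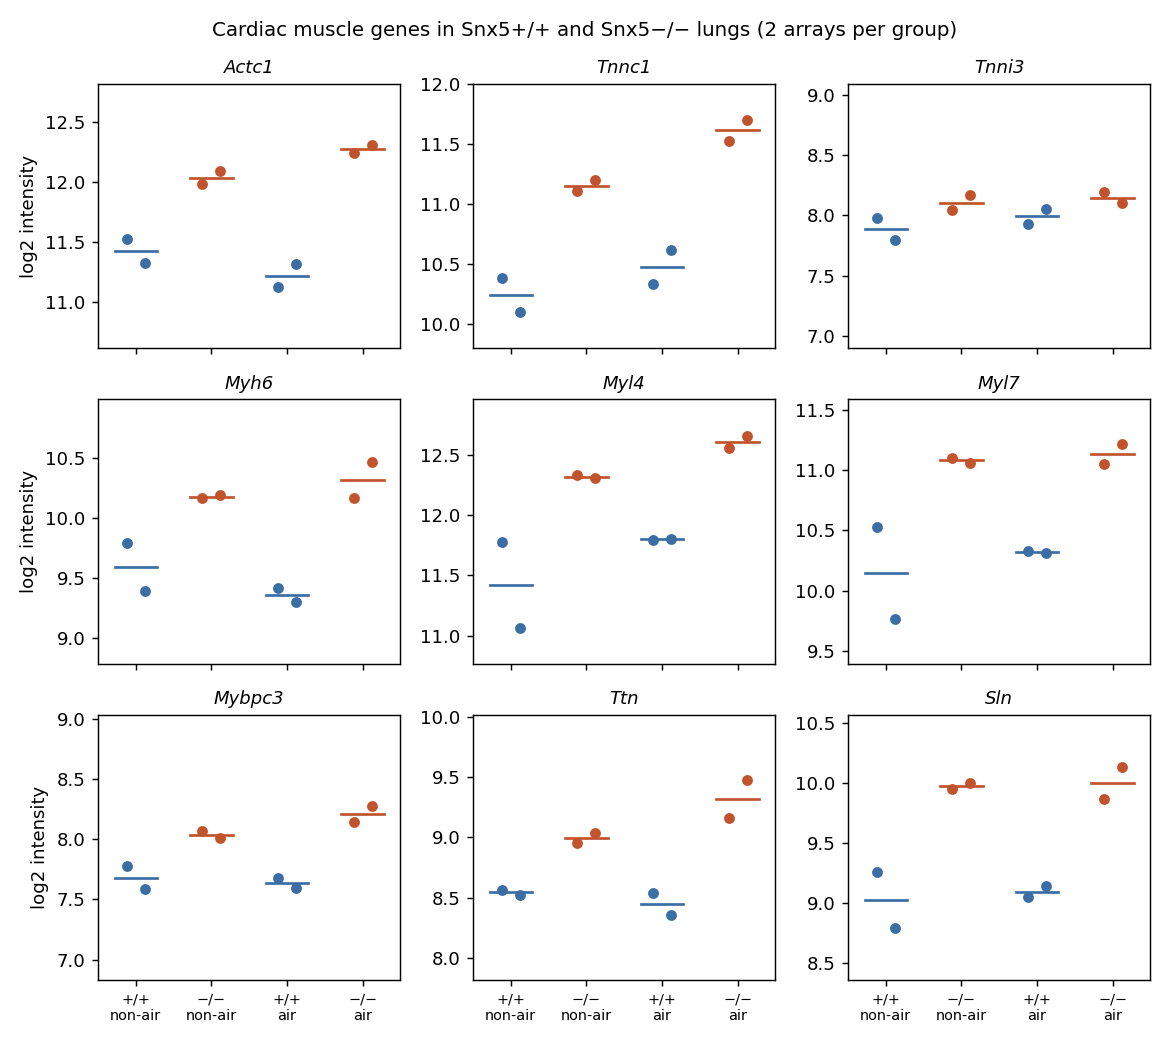
Log2 intensity (vertical axis, the same span in every panel) of the brightest probe of each of the 9 genes in the 4 groups on the horizontal axis. Each point is 1 array, bars are means of 2 arrays, blue is Snx5+/+ and orange is Snx5-/-, and in every panel but that of Tnni3 all orange points lie above all blue points.

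Tnnc1, the calcium sensor troponin C of heart and slow skeletal muscle, had log2 intensities of 10.38 and 10.10 in Snx5+/+ non-air lungs, 11.11 and 11.20 in Snx5-/- non-air lungs, 10.33 and 10.62 in Snx5+/+ air lungs and 11.53 and 11.70 in Snx5-/- air lungs. The Snx5-/- arrays formed a separate upper set, 0.49 above the nearest Snx5+/+ array. Its difference was 0.91 (1.88-fold) without air and 1.13 (2.20-fold) with air, the largest of the 9 genes in air lungs. Of 9635 tested genes, 3 had a larger averaged difference. Since the genes were chosen on this difference, nothing is read from that rank.

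Actc1, the actin of heart muscle that fetal skeletal muscle also uses, was measured by 2 probes. Its brighter probe read 11.52 and 11.32 in Snx5+/+ and 11.99 and 12.09 in Snx5-/- non-air lungs, and 11.13 and 11.32 in Snx5+/+ and 12.24 and 12.31 in Snx5-/- air lungs. The groups did not overlap, and the difference was 0.61 (1.53-fold) without air and 1.05 (2.08-fold) with air. The dimmer probe, between 8.35 and 9.01, showed the same order of genotypes with smaller differences of 0.37 and 0.53.

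Tnni3, cardiac troponin I, the subunit that holds the thin filament off at rest, stood close to background. Its log2 intensities were 7.97 and 7.80 in Snx5+/+ and 8.04 and 8.17 in Snx5-/- non-air lungs, and 7.93 and 8.06 in Snx5+/+ and 8.19 and 8.10 in Snx5-/- air lungs. It was above background on 2 of the 8 arrays, both Snx5-/-, and 1 Snx5+/+ air array lay above the lowest Snx5-/- array. No fold is given for it, since the other 6 arrays have only an upper bound.

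Of the thick filament, Myh6, the alpha myosin heavy chain of the atrium and of the adult mouse ventricle, read 9.79 and 9.39 in Snx5+/+ and 10.16 and 10.19 in Snx5-/- non-air lungs. In air lungs it read 9.42 and 9.30 in Snx5+/+ and 10.17 and 10.46 in Snx5-/-. The lowest Snx5-/- array was 0.37 above the highest Snx5+/+ array, and the difference was 0.59 (1.5-fold) and 0.95 (1.94-fold). The second Myh6 probe, between 7.35 and 7.55, was not above background on any array.

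The myosin light chains of the atrium had the widest spread among Snx5+/+ lungs. Myl4, the atrial essential light chain that embryonic skeletal muscle also makes, read 11.78 and 11.07 in Snx5+/+ and 12.33 and 12.31 in Snx5-/- non-air lungs, and 11.80 and 11.81 in Snx5+/+ and 12.56 and 12.66 in Snx5-/- air lungs. Myl7, the atrial regulatory light chain, read 10.53 and 9.76 in Snx5+/+ and 11.10 and 11.06 in Snx5-/- non-air lungs, and 10.33 and 10.31 in Snx5+/+ and 11.05 and 11.22 in Snx5-/- air lungs. In both genes Snx5+/+ non-air replicate 2 was the lowest of the 8 arrays, and no Snx5+/+ array reached a Snx5-/- array. The Myl4 difference was 0.90 (1.86-fold) without and 0.81 (1.75-fold) with air. That of Myl7 was 0.94 (1.92-fold) and 0.81 (1.76-fold).

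Ttn, encoding titin, the elastic filament of heart and skeletal muscle, was at 8.57 and 8.52 in Snx5+/+ and 8.95 and 9.04 in Snx5-/- non-air lungs, and at 8.54 and 8.36 in Snx5+/+ and 9.16 and 9.48 in Snx5-/- air lungs. The genotypes did not overlap, with differences of 0.45 (1.37-fold) and 0.87 (1.83-fold). Mybpc3, the cardiac myosin binding protein C of the thick filament, was at 7.78 and 7.59 in Snx5+/+ and 8.07 and 8.01 in Snx5-/- non-air lungs, and at 7.67 and 7.59 in Snx5+/+ and 8.14 and 8.28 in Snx5-/- air lungs. Its probe was above background on the 2 Snx5-/- air arrays and on no other, so that it has a bound of at least 1.16-fold in air lungs, taken against the lowest detected signal of each dim array or the probe's own value where that was higher, and no fold in non-air lungs, where the values differed by 0.36.

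Sln encodes sarcolipin, a small membrane protein that slows the calcium pump of the sarcoplasmic reticulum and is known from mouse atrium and skeletal muscle. It read 9.26 and 8.79 in Snx5+/+ and 9.95 and 10.002 in Snx5-/- non-air lungs, and 9.05 and 9.15 in Snx5+/+ and 9.86 and 10.14 in Snx5-/- air lungs. The gap between genotypes was 0.60, the widest of the 9 genes. Its difference was 0.95 (1.93-fold) without air, the largest of the 9 in that state, and 0.90 (1.87-fold) with air.

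Actc1, Mybpc3 and Ttn lie on chromosome 2, as does Snx5, and the other 6 measured genes on chromosomes 7, 9, 11 and 14. In the order of RefSeq genes, 279 protein-coding genes stand between Snx5 and Actc1, 436 between it and Mybpc3 and 726 between it and Ttn. The averaged difference had a median of 0.66 over the 3 genes on chromosome 2 (range 0.47 to 0.83) and of 0.86 over the 6 others (range 0.19 to 1.02, Tnni3 near background being the lowest).

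**Figure D2:**
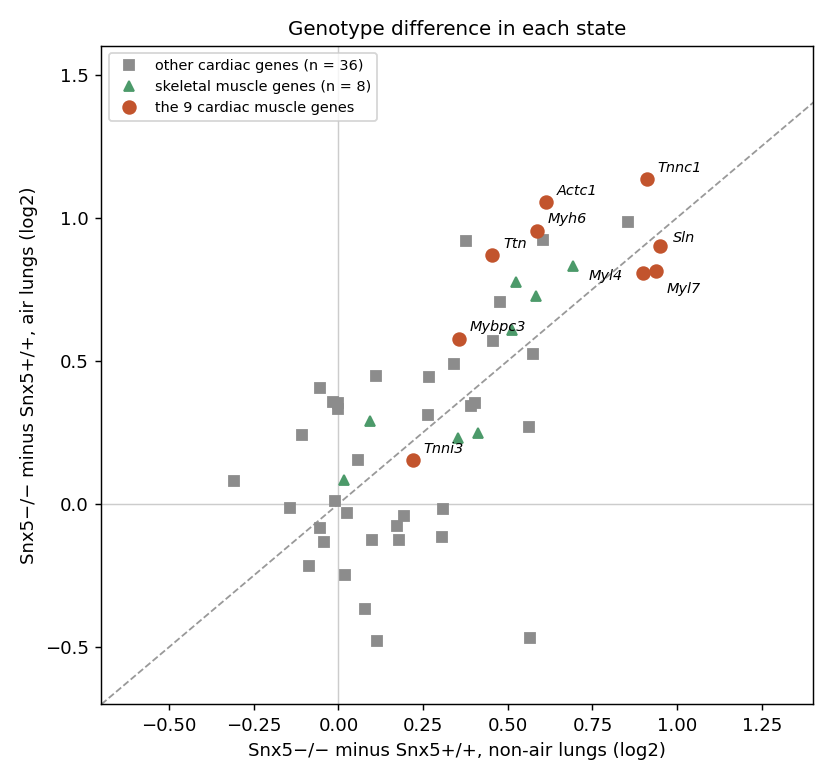
Log2 difference between Snx5-/- and Snx5+/+ lungs without air (horizontal axis) and with air (vertical axis), from means of 2 arrays per group. Orange points are the 9 cardiac muscle genes, grey squares 36 other cardiac genes and green triangles 8 skeletal muscle genes, the dashed line marks equal differences, and all 9 orange points lie above 0 on both axes, 5 of them above the dashed line.

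Air was compared across both genotypes, a comparison that the choice of the genes did not use. The level of the 9 genes in air lungs was higher than in non-air lungs by a median of 0.075 on the log2 scale, with 8 of 9 differences above 0. None of the 9 was called (limma, lowest adjusted p = 0.128), 2 had an unadjusted p under 0.05, and 1.27% of all genes tested were called in either direction. The largest difference was that of Tnnc1, 0.35 ± 0.09 (SE, 8 arrays, adjusted p = 0.128 from limma), then Myl4 with 0.33 ± 0.13 (adjusted p = 0.277, limma), and Myh6 alone was below 0, at -0.04 ± 0.10. Without Snx5+/+ non-air replicate 1, Tnnc1 (0.42, adjusted p = 0.0371, limma) and Myl4 (0.51, adjusted p = 0.00465, limma) were called higher in air lungs. Under the labels of the intensity table these air differences change sign. Because both Snx5-/- air arrays carried the male pattern, air and sex cannot be told apart in the Snx5-/- lungs. In Snx5+/+ lungs, where Xist was high on all 4 arrays, air minus non-air ran from -0.23 (Myh6) to 0.38 (Myl4), with a median of 0.07.

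The genotype difference was set against air by the interaction of genotype and air. The male pattern was on the Snx5-/- air arrays alone, so sex cannot be told apart from this interaction. The genotype difference was larger in air than in non-air lungs for 5 of the 9 genes, Actc1, Tnnc1, Myh6, Ttn and Mybpc3. It was smaller for Myl4, Myl7, Sln and Tnni3. None was called (limma, lowest adjusted p = 0.336, 2 with an unadjusted p under 0.05), where 0.488% of all genes tested were called in either direction. The genes were chosen for being higher in both states, so the choice used both differences compared here. Nothing is therefore read from the lack of calls. Actc1 had the largest value, 0.44 ± 0.16 (SE, 8 arrays, adjusted p = 0.336 from limma), followed by Ttn with 0.41 ± 0.17 (adjusted p = 0.384, limma), and the lowest was Myl7 with -0.12 ± 0.27. With 2 arrays per group the standard errors run from 0.15 to 0.27, so a difference between the states of that size was not detectable here. The interactions of Myl4, Myl7 and Sln turned on the 2 Snx5+/+ non-air arrays. Without replicate 1 of that group they were -0.45, -0.51 and -0.28, and without replicate 2 they were 0.26, 0.26 and 0.19, none of them called (limma).

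**Figure D3:**
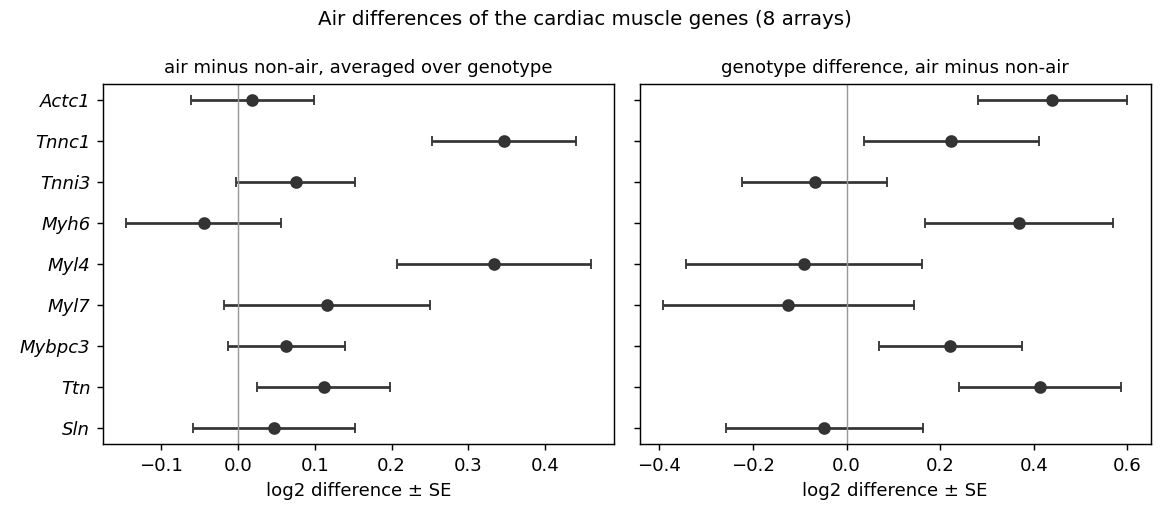
Log2 difference ± SE from limma over 8 arrays for each of the 9 genes (vertical axis): air minus non-air averaged over genotype (left) and the genotype difference in air minus that in non-air lungs (right). In the left panel Tnnc1 (0.35) and Myl4 (0.33) lie farthest to the right, in the right panel Actc1 (0.44) and Ttn (0.41), and none passed the test.

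The spread between the 2 arrays of a group was shared by the genes in 2 of the 4 groups. Replicate 2 of the Snx5+/+ non-air lungs was below replicate 1 for all 9 genes, with a median difference of -0.40 over the 7 genes above background on all arrays, from -0.04 for Ttn to -0.77 for Myl7. Of 8268 genes above background on all arrays, 48.5% were higher in that replicate 2, with a median difference of -0.01. In Snx5-/- air lungs replicate 2 was above replicate 1 for all 7 of these genes, by a median of 0.17 (range 0.07 to 0.32), against 52.4% of all genes. Both Snx5-/- non-air arrays were close, with differences from -0.04 to 0.10. The 2 Snx5+/+ air arrays divided the genes: Tnnc1 (0.29) and Actc1 (0.19) were higher in replicate 2, and Ttn (-0.18) and Myh6 (-0.11) were lower. The spread of the 9-gene mean between the arrays of a group, pooled over the 4 groups, was 0.14 (SD, log2).

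**Figure D4:**
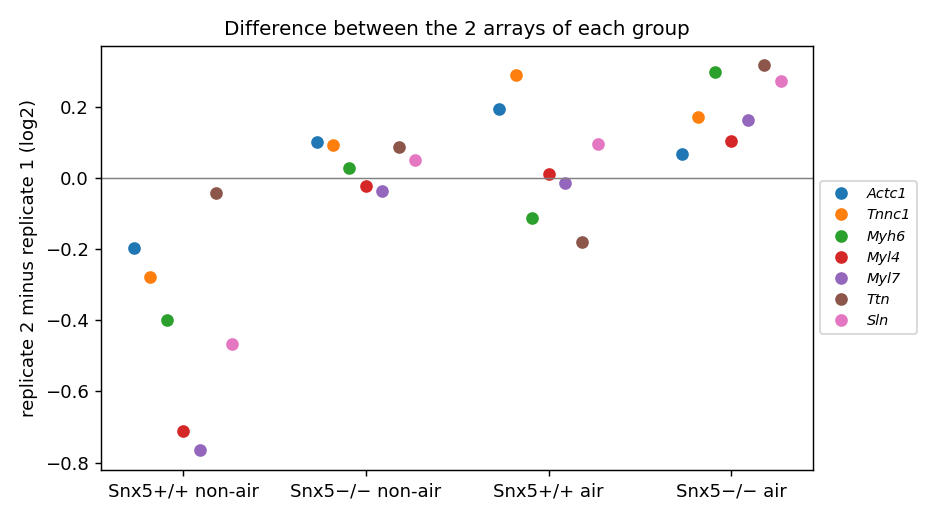
Log2 difference between the 2 arrays of each group (replicate 2 minus replicate 1, vertical axis) for the 7 genes above background on all arrays, by group on the horizontal axis, 1 colour per gene. All 7 points lie below 0 in Snx5+/+ non-air lungs and above 0 in Snx5-/- air lungs, and in Snx5-/- non-air lungs they lie between -0.04 and 0.10.

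Each of the 7 genes followed the mean of the others over the 8 arrays, with Pearson's r from 0.93 for Ttn to 0.98 for Sln. These 8 points share the genotype groups, so that r describes the order of the arrays and is given without a p. Among 1463 other genes whose SD over the arrays was at least 0.2, the 10 with the profile most like the mean of these 7 were Mybphl (r = 0.991), Csrp3 (0.989), Pdlim4 (0.977), Actn2 (0.977), Ccl5 (0.972), Myl1 (0.971), Cfap69 (0.959), Hook2 (0.958), Zxda (0.953) and Fabp3 (0.949). Mybphl, a myosin binding protein H-like gene known from the atrium, read 8.39 and 8.12 in Snx5+/+ and 8.78 and 8.85 in Snx5-/- non-air lungs, and 8.35 and 8.24 in Snx5+/+ and 8.83 and 8.98 in Snx5-/- air lungs. Csrp3 (muscle LIM protein) and Actn2 (sarcomeric alpha-actinin) belong to the Z-disc, Myl1 is a light chain of fast skeletal muscle and Fabp3 the fatty acid binding protein of heart. The other 5 are not on the muscle lists used here.

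A wider set of 66 cardiac genes, listed by role and not as members, was then read in the same fit. This list was chosen with earlier results of these data known, so its counts are no independent check. Of these, 61 had a probe, 36 passed the intensity filter and 27 were above background on no array. Averaged over both states, 10 of the 36 were called higher and 0 lower in Snx5-/- lungs (limma), where 0.882% of all genes were called higher and 1.53% lower, with 15 higher and 0 lower at an unadjusted p under 0.05. Their median difference was 0.12, beside 0.0073 over the 9635 genes tested. The averaged comparison includes the Snx5-/- air arrays with the male pattern, so genotype and sex are partly mixed in it. Of the 36, 3 passed the intensity filter through Snx5-/- groups alone, Myl2, Myoz2 and Isl1, and all 3 are among the called, so their calls carry no weight here. The other 33 held 7 called genes. The calls of Myl3, Hspb7, Myl2 and Myoz2 were lost without some of the single arrays, as given by gene below.

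The called genes were mostly of the sarcomere, its Z-disc and the muscle energy supply. Csrp3 read 9.36 and 8.95 in Snx5+/+ and 10.01 and 10.01 in Snx5-/- non-air lungs, and 9.07 and 9.15 in Snx5+/+ and 10.05 and 10.14 in Snx5-/- air lungs. It rose by 0.92 ± 0.09 (SE, 4 arrays per genotype, adjusted p = 0.000248 from limma), with no overlap between genotypes. Under the alternatives described at the end, the Csrp3 difference ran from 0.70 to 1.17. Actn2 read 8.76 and 8.61, then 9.35 and 9.22 without air, and 8.70 and 8.73, then 9.56 and 9.71 with air, Snx5+/+ before Snx5-/- in each pair. It rose by 0.76 ± 0.08 (adjusted p = 0.000248, limma). Ankrd1, a stress-responsive repeat protein of heart muscle, rose by 0.59 ± 0.08 (adjusted p = 0.00187, limma), Fabp3 by 0.55 ± 0.09 (adjusted p = 0.00484, limma) and Myl3, the light chain of ventricle and slow skeletal muscle, by 0.51 ± 0.10 (adjusted p = 0.0141, limma).

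Ckm, the creatine kinase of muscle, was above background on the 4 Snx5-/- arrays and on no other, and was at least 1.52-fold higher (adjusted p = 0.00351, limma). Hspb7, a small heat shock protein of heart, showed the same detection and was at least 1.25-fold higher (adjusted p = 0.0179, limma). The remaining 3 called genes, Myl2 (the ventricular regulatory light chain), Myoz2 (a Z-disc protein) and Isl1 (a transcription factor of heart progenitors), were above background on 1, 1 and 0 arrays and have no fold. The call of Myl3 was lost without Snx5-/- non-air replicate 1 (0.54), Snx5-/- non-air replicate 2 (0.49), Snx5+/+ air replicate 1 (0.42) or Snx5-/- air replicate 1 (0.48). The call of Hspb7 was lost without Snx5+/+ non-air replicate 2 (0.35), Snx5-/- non-air replicate 1 (0.34) or 2 (0.39), Snx5+/+ air replicate 1 (0.37) or 2 (0.36), or Snx5-/- air replicate 2 (0.33). Myl2 kept its call without Snx5+/+ non-air replicate 1 or Snx5-/- air replicate 1, was not tested without Snx5-/- air replicate 2, and lost it without any other array (0.36 to 0.44). Myoz2 kept its call without Snx5+/+ non-air replicate 1 and lost it without any other array (0.30 to 0.41). The calls of Csrp3, Actn2, Ankrd1, Fabp3 and Ckm held without each single array. That of Isl1 held too, but Isl1 passed the filter through Snx5-/- groups alone, so its call carries no weight here.

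By role, 5 of 11 tested genes of sarcomere and Z-disc were called higher, 2 of 7 of the energy supply, 2 of 3 of the ventricle and 1 of 8 transcription factors. Among all genes, 0.882% were called higher in this averaged comparison. Without the 3 genes that passed the filter through Snx5-/- groups alone, it was 4 of 10 of sarcomere and Z-disc, 2 of 7 of the energy supply, 1 of 2 of the ventricle and 0 of 7 transcription factors. Of 6 tested genes of calcium handling and excitation, 0 were called, with 1 higher at an unadjusted p under 0.05. The only tested gene of the atrial list was Gja5, a connexin that arteries also make (difference 0.07, adjusted p = 0.736, limma). Atp2a2, the calcium pump of heart and smooth muscle, lay between 12.83 and 13.28 and differed by 0.17 (adjusted p = 0.304, limma). Defining genes of heart muscle were at background on all 8 arrays: Nppa, the atrial natriuretic peptide (7.32 to 7.83), Ryr2, the calcium release channel (7.23 to 7.52), Pln, the ventricular pump inhibitor phospholamban (7.21 to 7.47), Myh7, the beta myosin heavy chain (7.83 to 8.09), and Nkx2-5, a heart transcription factor (7.26 to 7.66). A probe at background has only an upper bound, so these values show neither presence nor absence of the RNA.

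In each state alone fewer of these genes passed. In non-air lungs, where all 4 arrays had the high Xist level, 2 of 35 tested cardiac genes were called higher, Csrp3 (0.85, adjusted p = 0.0151, limma) and Actn2 (0.60, adjusted p = 0.0336, limma), and 0 lower, where 0.266% of all genes were called higher and 0.373% lower. At an unadjusted p under 0.05 it was 11 higher and 1 lower. In air lungs 5 of 34 were called higher, Csrp3, Actn2, Ankrd1, Ckm and Isl1, and 0 lower, against 1.05% and 1.32% of all genes, with 16 higher and 4 lower at an unadjusted p. Ckm and Isl1 passed the filter for that comparison through the Snx5-/- air lungs alone. The non-air count was 7 without Snx5+/+ non-air replicate 1, 0 without Snx5+/+ non-air replicate 2, Snx5-/- non-air replicate 1 or Snx5-/- non-air replicate 2, and 1 when an Snx5+/+ air array was left out. The air count was 9 when an Snx5+/+ non-air array was left out, which also gave 1 lower call, 3 without Snx5+/+ air replicate 1 and 2 without Snx5-/- air replicate 2. Whether the counts of the 2 states differ was not tested.

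**Figure D5:**
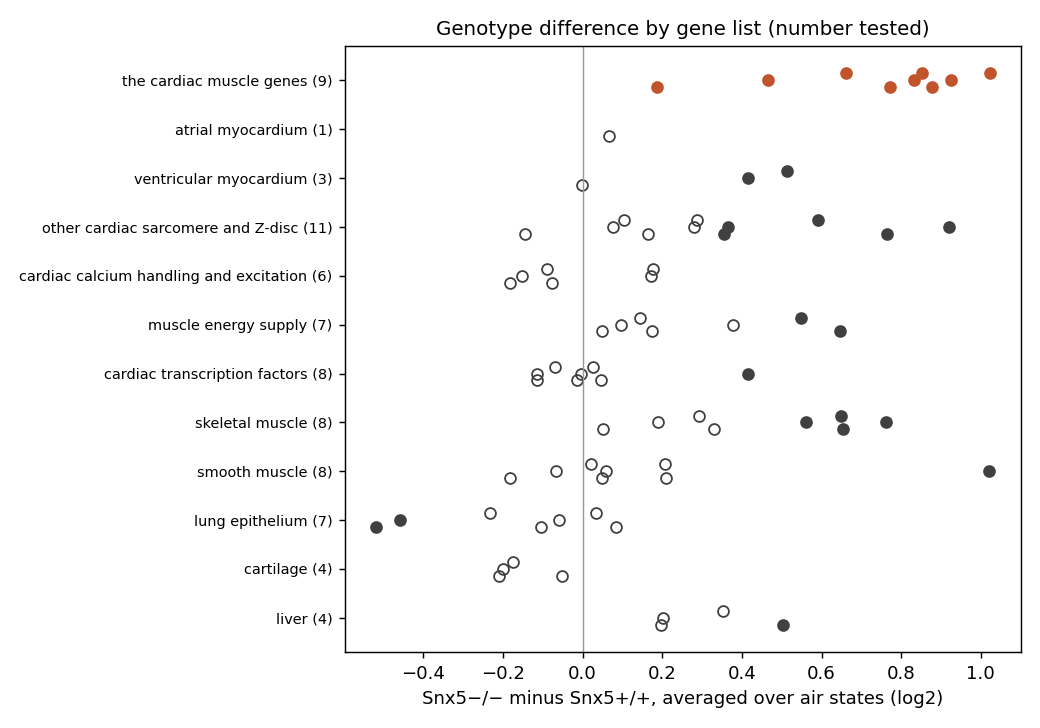
Log2 difference between Snx5-/- and Snx5+/+ lungs averaged over both states (horizontal axis) for the tested genes of each list (vertical axis, number of genes in brackets). Orange points are the 9 cardiac muscle genes, which carry no test, filled dark points are called genes and open points are genes that were not called. Called points to the right of 0 appear in the sarcomere, ventricle, energy supply, transcription factor, skeletal muscle, smooth muscle and liver lists. Those of the transcription factor and liver lists are Isl1 and Ahsg, whose calls carry no weight.

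Markers of other tissues, read in the same fit, did not all move alike. Their lists too were chosen with earlier results of these data known. Those of skeletal muscle that were tested read higher in Snx5-/- lungs. Of 28 skeletal muscle genes, 24 had a probe, 16 of them above background on no array. Of 8 tested, 4 were called higher and 0 lower in the averaged comparison, with a median difference of 0.45. Among all genes, 0.882% were called higher and 1.53% lower. Myl1, the light chain of fast skeletal muscle, read 8.51 and 8.42 in Snx5+/+ and 9.07 and 9.25 in Snx5-/- non-air lungs, and 8.61 and 8.62 in Snx5+/+ and 9.32 and 9.58 in Snx5-/- air lungs, and it rose by 0.76 ± 0.08 (adjusted p = 0.000462, limma). Under the alternatives described at the end, the Myl1 difference ran from 0.40 to 1.15. Tnni2 (troponin I of fast muscle, 0.66 ± 0.10, adjusted p = 0.00391) and Tnnt1 (troponin T of slow muscle, 0.65 ± 0.09, adjusted p = 0.00176) rose as well by limma, and Acta1, the skeletal actin, was called with its probe above background on 1 array, having passed the filter through Snx5-/- groups alone. Without it and the 2 uncalled genes that did so too, 3 of 5 were called. The summed linear intensity of the 24 skeletal genes was 5300 to 5580 in Snx5+/+ and 6230 to 6530 in Snx5-/- non-air lungs, and 5700 to 6020 and 7160 to 7390 in air lungs. That of the 9 cardiac muscle genes was 8570 to 11600 and 16800 to 17200 in non-air lungs, and 10400 to 11000 and 19200 to 21100 in air lungs. Both sums include the background of every probe, detected or not, so they do not give relative amounts of RNA of these muscles. Myh1, an adult fast myosin, was at background on all arrays. The part of skeletal muscle in the result was not tested.

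Smooth muscle gave 1 call among 8 tested genes in the averaged comparison, where 0.882% of all genes were called higher. Actg2, the actin of visceral smooth muscle, rose by 1.02 ± 0.09 (adjusted p = 7.84e-05, limma), from 11.83 and 11.47 to 12.30 and 12.28 without air and from 11.63 and 11.74 to 13.14 and 13.04 with air. It was also the one smooth muscle gene called higher in air lungs averaged over genotype (0.42, adjusted p = 0.0462, limma), where 1.27% of all genes were called in either direction. In Snx5+/+ lungs its air arrays (11.63 and 11.74) lay between the non-air arrays (11.83 and 11.47). The Snx5-/- air arrays carried the male pattern, so air and sex cannot be told apart in this call. Under the labels of the intensity table this air difference changes sign. Acta2 (0.05), Myh11 (0.21) and Tagln (0.21), the general smooth muscle markers, were not called. Of the liver list 1 of 4 tested genes was called higher averaged over both states (0.882% of all genes) and 3 of 4 in non-air lungs (0.266%). These 4 passed the intensity filter through non-air lungs alone, where all 4 read higher in Snx5-/- lungs, so these calls carry no weight here. The averaged call was that of Ahsg, encoding fetuin, with its probe above background on the 2 Snx5-/- non-air arrays alone. This call was lost without Snx5-/- non-air replicate 2 or Snx5-/- air replicate 2 (0.42 and 0.46). Albumin (Alb) and alpha-fetoprotein (Afp) were at background on all 8 arrays. The summed intensity of the 9 liver genes was 1530 to 1620 in Snx5+/+ and 2080 to 2170 in Snx5-/- non-air lungs, and 1760 to 1810 and 1600 to 1720 in air lungs. This sum includes background, and 6 of the 9 genes were above background on no array. Of 9 thymus genes with a probe, 0 were above background on any array, and of 4 tested cartilage genes 0 were called, with 2 lower at an unadjusted p under 0.05. In the lung epithelium list Ager (-0.46 ± 0.07, adjusted p = 0.00433, limma) and Aqp5 (-0.52 ± 0.07, adjusted p = 0.00252, limma), both of alveolar type I cells, fell, and the surfactant gene Sftpc (0.03) was not called. Of 2 tested genes of stratified epithelium, Krt14, a keratin of basal cells, was called lower (1.53% of all genes) with its probe above background on 1 array. Krt14 passed the intensity filter through air lungs alone, where it read lower in Snx5-/- lungs, so this call carries no weight here. The parts of these tissues in the result were not tested.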

How the data were processed

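RNA from 8 whole-lung samples (embryonic day 18.5), 2 per group, was hybridised to Illumina MouseRef-8 v2 arrays. The log2 intensities were quantile normalized by the authors, per the methods. The deposited linear intensities are not normalized and stand beside a deposited detection p-value for each probe. The log2 values under their own labels were analysed, because the deposited detection p-values follow these labels (all 8 columns) and the deposited intensity columns match the other air state (rank correlations of 0.99975 or more, the next best pair reaching 0.972). The description of the non-air mutant samples names wild-type lungs, against their title and genotype, which were followed.

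Fits used limma 3.58.1 in R 4.3.3 with a mean for each group and empirical Bayes moderation, keeping probes whose mean log2 intensity exceeded 8 in 1 or more of the groups compared. Calls needed a Benjamini-Hochberg adjusted p under 0.05 over all tested probes, and counts are of genes by their brightest probe. The cardiac muscle genes were not tested between genotypes. The members and the gene lists were chosen with earlier results of these data known. Genes named beyond the members are, of each list, up to 6 genes called in the averaged genotype comparison and a few uncalled defining genes in list order, and the 10 genes most like the members' profile. Fga was named for its interaction. The fit was tested on simulated data. Promoter windows are RefSeq sequences of GRCm38.p6, read in Python 3.11.15. The methods name biological replicates, the labels number them without tying them to animals, and p-values measure the spread between these samples. With 2 arrays against 2 an exact permutation test could not give a p under 0.333. The number of arrays limits the precision, and the alternatives are described at the end.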

Additional observations from a re-analysis of the deposited data

Results flagged for a closer look

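For 3 genes of the liver list the interaction of genotype and air passed the test in limma, with most of their values at background. In air lungs 0 genes of that list passed the intensity filter. The 3 genes passed it through non-air lungs alone, where they read higher in Snx5-/- lungs, so these calls carry no weight here. The fitted value (genotype difference in air minus that in non-air lungs, log2) was -1.30 for Fga, a fibrinogen chain (adjusted p = 0.00297), -1.01 for Ahsg, encoding fetuin (adjusted p = 0.033), and -0.91 for Apoa1, an apolipoprotein (adjusted p = 0.0114). The probes of Fga and Ahsg were above background on the 2 Snx5-/- non-air arrays and on no other, at least 1.35-fold and 1.45-fold higher there than in Snx5+/+ non-air lungs, and that of Apoa1 on no array. The fitted values therefore give no size of a change. No cardiac muscle gene met this test, but their choice used both differences that it compares, so nothing is read from that. Groups of 2 arrays are too small for a search for single outlying arrays.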

How the results depend on the processing

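Depth is not defined for arrays, and their number and the background of dim probes limit these results. Under the intensities with their own labels the median difference of the cardiac muscle genes was 0.87 in non-air and 0.61 in air lungs, the air difference averaged over genotype turned from 0.075 to -0.077, and 6 and 2 other cardiac genes were called higher in non-air and air lungs. That setting changed the values and the labels together, and its averaged count, which the labels do not touch, was 9 beside 10. With neqc normalization the medians were 0.94 (non-air), 1.14 (air) and 0.98 (averaged), and 6 other cardiac genes were called in the averaged comparison, as with 64 added before log2 (also 6). With the mean of a gene's probes the averaged median was 0.66. Array weights gave 9 other cardiac genes called higher in air lungs. The replicate numbers do not pair the samples (correlations of same-numbered deviations from -0.26 to 0.31), and with the replicate block 1 other cardiac gene was called in non-air lungs and 10 in the averaged comparison, and no other count moved. The methods' t-test gave 8 in air lungs unadjusted, and after Benjamini-Hochberg adjustment 0 other cardiac genes in the averaged, non-air and air comparisons and 0 skeletal muscle genes. The cause of these shifts was not tested.

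Leaving out each array in turn, the median difference of the cardiac muscle genes ran from 0.51 to 0.79 in non-air lungs, from 0.76 to 1.03 in air lungs and from 0.68 to 0.88 averaged. Between 0 and 2 of them were called higher with air. The count of other cardiac genes called higher ran from 6 to 11 averaged, from 0 to 7 in non-air and from 2 to 9 in air lungs, with 0 to 1 called lower in air lungs. Of the values of these comparisons under all alternatives, 252 stayed within the replicate spread or within 1.5 times the count, 36 moved by more and 1 reversed. Some of the 252 could not move. Array weights and the replicate block leave the medians as they are, and leaving out an array leaves the median of the other state as it is. Counts of 0 that stayed at 0 are also among them. The tally therefore does not measure how far the results depend on the processing.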
